A study of Mus musculus with 18 samples.

Results

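The 10 genes described here mark neutrophils and were measured in mouse liver: S100a8, S100a9, Retnlg, Csf3r, Cxcr2, Il1r2, Hdc, Ngp, Ltf and Camp. They were taken by symbol as 10 rows of a table of 24394 genes, and 5 of the 10 had enough counts to pass the filter on low counts, as did 11218 genes in all. Their RNA was counted in 18 livers from 3′ tags, short reads taken near the poly(A) tail, so that a transcript is read at its end whatever its length. The livers came from 6 tumour-bearing mice of genotype Alb-Cre+/+;Stat3f/f (called Stat3-deleted here), 6 tumour-bearing wild-type (WT) mice and 6 control WT mice. The tumour line is PDA.69, a T-cell-low line derived from the KPC mouse model of pancreatic ductal adenocarcinoma, and the labels name it for the control livers as well. Alb-Cre, driven by the albumin promoter, acts in hepatocytes, so that neutrophils, which arise in the bone marrow, are not the cells it targets. The labels give no tumour site, time, sex or age, and no tumour-free group with deleted Stat3 was analysed here.

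Neutrophils are short-lived granulocytes made in the bone marrow and released into the blood, from which they enter inflamed tissue, among them the liver sinusoids. During maturation they fill granules in waves: proteases such as proteinase 3 and elastase go into the azurophil granules of promyelocytes, while Ngp, lactoferrin (Ltf) and cathelicidin (Camp) go into the specific granules of myelocytes and metamyelocytes. S100a8, S100a9, Retnlg, Cxcr2 and Il1r2 transcripts are abundant in mature cells, which leave the marrow in response to the cytokine G-CSF, acting on Csf3r, and to CXC chemokines, acting on Cxcr2.

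Libraries of Stat3-deleted livers held 7222882 to 9545442 counts, those of tumour-bearing WT livers 6168658 to 8850200 and those of control livers 5212265 to 7159148. Levels are given in CPM, counts scaled to a common library size, with library totals adjusted by the trimmed mean of M-values (TMM). Fold changes are log2 values from edgeR's quasi-likelihood test with Benjamini-Hochberg adjustment over the 11218 genes, and a gene is called at an adjusted p under 0.05. Stat3 itself stood at 99.4 to 132 CPM in Stat3-deleted, 163 to 264 CPM in tumour-bearing WT and 93.6 to 148 CPM in control livers. It was lower in Stat3-deleted than in tumour-bearing WT livers (log2 fold change -0.85, SE 0.14, edgeR adjusted p = 0.00043), but a tag at the 3′ end does not check a deletion elsewhere in the gene. Tumour-bearing WT livers also stood above control livers (0.93, SE 0.14, edgeR adjusted p = 0.0003). Stat3-deleted livers lay close to control livers (0.08, SE 0.14, edgeR adjusted p = 0.803). The identifying numbers in the labels fall into a lower and a higher run that each hold 3 tumour-bearing and 3 control WT livers, whereas all Stat3-deleted livers come from a run of their own. Genotype and run can therefore not be told apart, and the labels do not say what the runs are.

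Of the 10 genes, 8 had their highest mean in tumour-bearing WT livers, 2 (Hdc and Csf3r) in Stat3-deleted livers and 0 in control livers. Among 17055 genes with a count, the mean was highest in Stat3-deleted livers for 29.8%, in tumour-bearing WT livers for 36.6% and in control livers for 33.6%. In bulk tissue, a change in the number of neutrophils, in a transcript per neutrophil or in its level in other liver cells cannot be told apart. Between tumour-bearing WT and control livers, 4 of the 5 genes that passed the filter were called, each of them higher (S100a8, S100a9, Retnlg and Ngp), against 1.76% of all tested genes called higher, 0.49% called lower and 2.25% in either direction. Between Stat3-deleted and tumour-bearing WT livers, 3 of 5 were called, each of them lower (S100a8, S100a9 and Retnlg), against 3.23% called lower, 2.89% called higher and 6.12% in either direction. Between Stat3-deleted and control livers only Hdc was called, and it was higher, against 2.19% called higher, 2.66% called lower and 4.85% in either direction. The median log2 fold change over all tested genes was 0.00, -0.03 and -0.01 in the 3 comparisons in that order. Because a gene of few counts passes the filter through the group where it is high, the counts over 5 genes describe those genes and not the other 5.

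**Figure D1:**
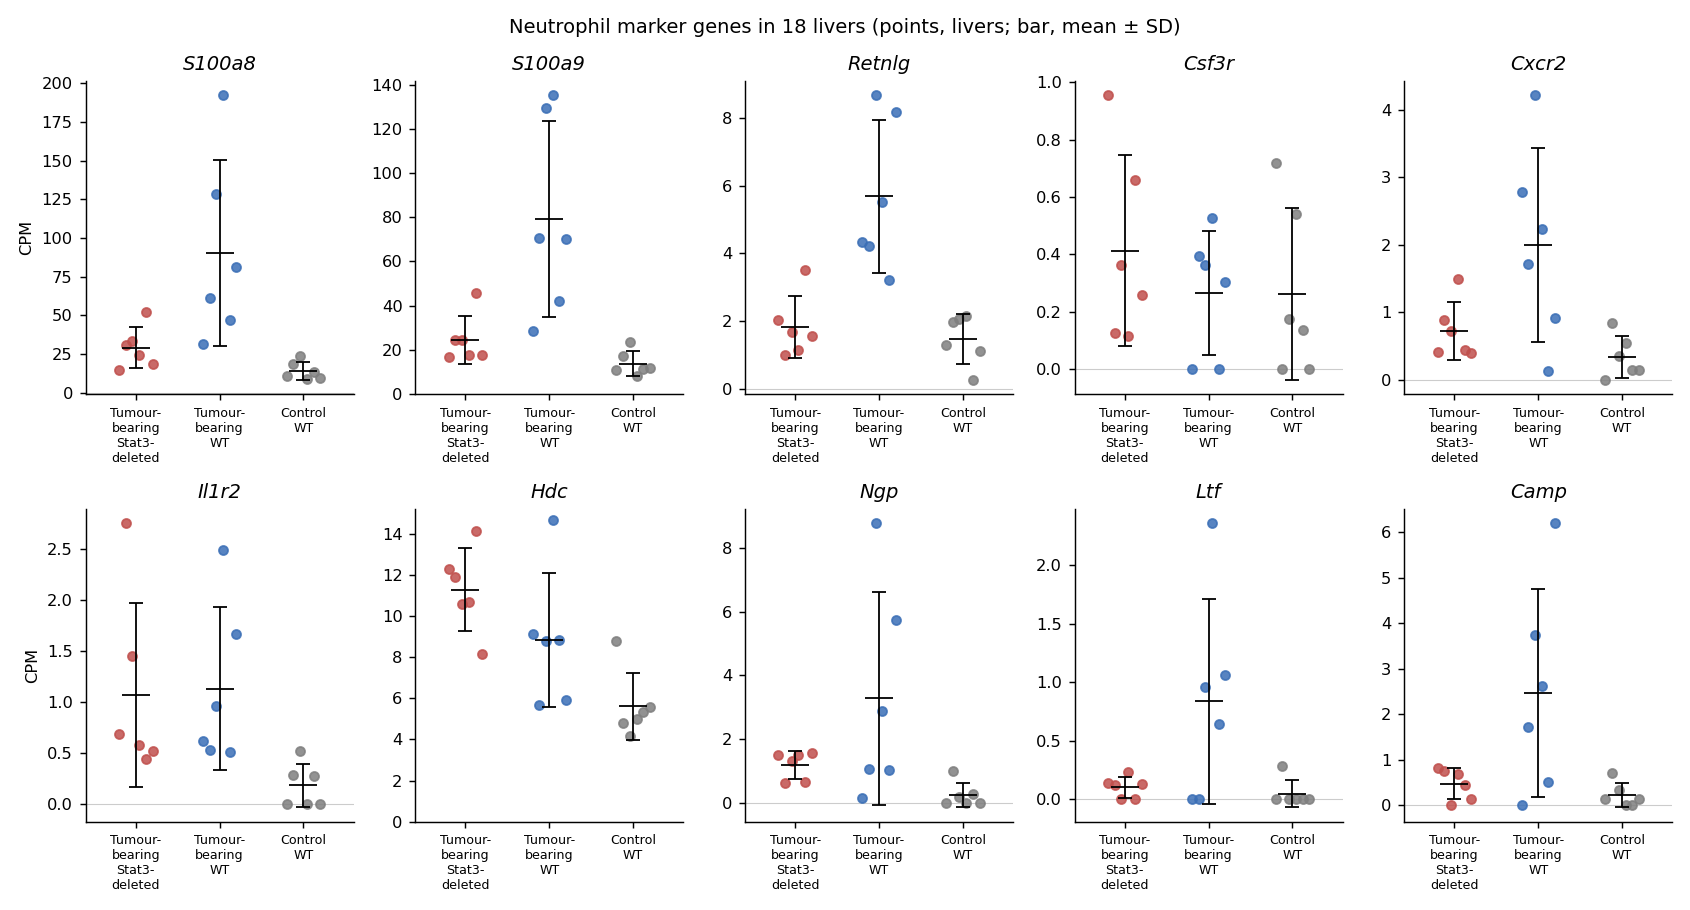
Level in CPM (vertical axis, linear, a scale of its own in each panel) of the 10 genes in each of the 18 livers, by group (horizontal axis); points are livers and bars the mean ± SD of 6. S100a8, S100a9 and Retnlg reach 192, 135 and 8.67 CPM in tumour-bearing WT livers, with every one of these livers above every control liver, while Hdc is highest on average in Stat3-deleted livers.

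S100a8 and S100a9 encode the subunits of calprotectin, a calcium- and zinc-binding complex that fills the neutrophil cytosol. The genes are neighbours on mouse chromosome 3 (GRCm38.p6), S100a8 at chr3:90669071-90670034 on the plus strand and S100a9 at chr3:90692630-90695721 on the minus strand, with 22595 bases between them. The 250 bases before the start of each gene are printed from RefSeq because these genes moved together, next to those of Ngp, which followed them less closely. Capitals mark matches on either strand to a PU.1 motif (GAGGAA), a C/EBP motif (TTGCNNAA), a STAT motif (TTCNNNGAA) and a TATA box (TATAAA), PU.1 and C/EBP being myeloid transcription factors.
S100a8, chr3:90668821-90669070, plus strand: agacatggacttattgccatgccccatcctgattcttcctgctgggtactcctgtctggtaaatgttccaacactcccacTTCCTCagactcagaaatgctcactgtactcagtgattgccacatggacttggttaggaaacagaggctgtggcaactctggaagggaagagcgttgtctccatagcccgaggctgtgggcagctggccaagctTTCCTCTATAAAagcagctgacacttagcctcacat
S100a9, chr3:90695722-90695971, minus strand: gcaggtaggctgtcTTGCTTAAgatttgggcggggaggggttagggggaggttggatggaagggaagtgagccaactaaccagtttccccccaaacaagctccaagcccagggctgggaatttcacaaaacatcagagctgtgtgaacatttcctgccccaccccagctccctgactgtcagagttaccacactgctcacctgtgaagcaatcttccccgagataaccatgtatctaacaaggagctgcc
Ngp, chr9:110419558-110419807, plus strand: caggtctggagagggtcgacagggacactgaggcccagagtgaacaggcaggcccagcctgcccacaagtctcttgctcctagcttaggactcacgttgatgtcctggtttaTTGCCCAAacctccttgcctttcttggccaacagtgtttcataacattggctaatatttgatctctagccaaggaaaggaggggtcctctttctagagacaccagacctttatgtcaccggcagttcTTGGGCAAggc
In the S100a8 window TTCCTC, the PU.1 motif on the other strand, began 170 and 36 bases before the start, and the second match ran directly into a TATA box 30 bases before it. The S100a9 window held 1 C/EBP match, TTGCTTAA, 236 bases before the start, and the Ngp window held 2, TTGCCCAA and TTGGGCAA, at 138 and 11 bases. All 10 genes had a window, but for Csf3r, Il1r2 and Hdc the start used in the promoter table lies inside the gene span given here, so their windows lie within the gene. A C/EBP match lay in 4 of the 10 (S100a9, Retnlg, Ngp and Ltf), against 9.56% of 32851 RefSeq windows of the same length, and a PU.1 match in 4 (S100a8, Csf3r, Cxcr2 and Ltf), against 23.3%. A STAT match lay in 1, that of Il1r2 (TTCAAGGAA, 111 bases before that inner start), against 7.02%, and a TATA box in S100a8 alone, against 12.4%. A match of letters shows no binding.

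S100a8 had a lowest level of 14.9, a median of 27.6 and a highest of 52.1 CPM in Stat3-deleted livers, against 31.6, 71.3 and 192 CPM in tumour-bearing WT livers and 9.07, 12.04 and 23.8 CPM in control livers. Every tumour-bearing WT liver stood above every control liver, while the Stat3-deleted livers overlapped both groups. The means were 29.0 ± 13.3, 90.2 ± 60.2 and 14.2 ± 5.83 CPM in Stat3-deleted, tumour-bearing WT and control livers (SD, n = 6 each). S100a8 was higher in tumour-bearing WT than in control livers by 2.67 on the log2 scale (SE 0.38, edgeR adjusted p = 0.000197), with 2.06 within the lower and 3.31 within the higher run of label numbers (adjusted p = 0.0763 and 0.0152, 3 livers against 3, edgeR). It was lower in Stat3-deleted than in tumour-bearing WT livers (log2 fold change -1.64, SE 0.37, edgeR adjusted p = 0.00764), with 6 of 6 livers below the tumour-bearing WT mean. All 6 Stat3-deleted livers lay above the control mean, but the difference missed the threshold (1.04, SE 0.37, edgeR adjusted p = 0.109).

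S100a9 stood at a lowest level of 16.5, a median of 21.1 and a highest of 45.8 CPM in Stat3-deleted livers, against 28.5, 70.3 and 135 CPM in tumour-bearing WT livers and 8.12, 11.4 and 23.3 CPM in control livers. As for S100a8, the tumour-bearing WT and control livers did not overlap, which held for 1.05% of all tested genes in that direction. The log2 fold change was 2.54 between tumour-bearing WT and control livers (SE 0.35, edgeR adjusted p = 0.000141), with 2.17 and 2.99 within the lower and the higher run (edgeR adjusted p = 0.0704 and 0.0137). Between Stat3-deleted and tumour-bearing WT livers it was -1.70 (SE 0.34, edgeR adjusted p = 0.003), and between Stat3-deleted and control livers 0.85 (SE 0.34, edgeR adjusted p = 0.156). The comparisons share livers, so the values of a gene in them are not independent.

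Retnlg encodes a resistin-like secreted protein of mouse bone marrow and neutrophils (chr16:48872608-48874498, plus strand). Its level was 1.00 at the lowest, 1.62 at the median and 3.51 CPM at the highest in Stat3-deleted livers, against 3.20, 4.92 and 8.67 CPM in tumour-bearing WT livers and 0.274, 1.63 and 2.17 CPM in control livers. The ranges of Stat3-deleted and control livers overlapped widely, and again every tumour-bearing WT liver exceeded every control liver. Retnlg was higher in tumour-bearing WT than in control livers (log2 fold change 1.93, SE 0.40, edgeR adjusted p = 0.00803) and lower in Stat3-deleted than in tumour-bearing WT livers (-1.62, SE 0.38, edgeR adjusted p = 0.0116). The same fit gave 0.31 between Stat3-deleted and control livers (SE 0.41, adjusted p = 0.726). Within the lower and the higher run it was higher in tumour-bearing WT livers by 1.68 and 2.22 (edgeR adjusted p = 0.222 and 0.173, neither called). The calls of S100a8, S100a9 and Retnlg in the first and second comparison were made in 18 of 18 fits that each left out 1 liver.

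**Figure D2:**
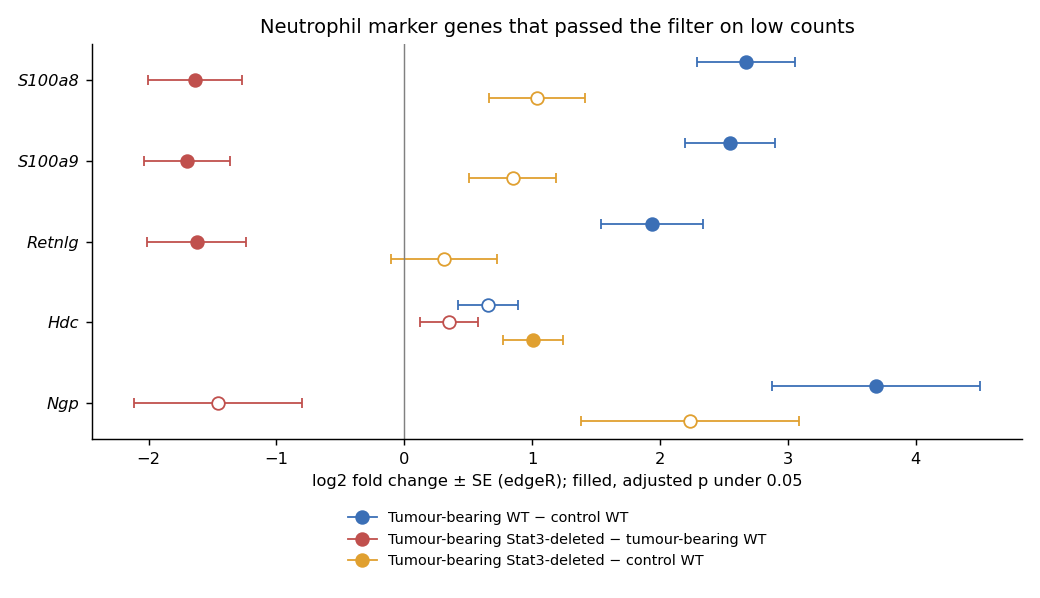
Log2 fold change (horizontal axis) with its standard error for the 5 genes that passed the filter on low counts (vertical axis), in 3 comparisons of 6 livers with 6; filled points have an edgeR adjusted p under 0.05. S100a8, S100a9 and Retnlg lie between 1.93 and 2.67 for tumour-bearing WT against control livers and between -1.70 and -1.62 for Stat3-deleted against tumour-bearing WT livers.

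The receptors had few counts, and none of the 3 passed the filter, so their fold changes come from a fit of edgeR with no filter. Cxcr2, the receptor for Cxcl1 and related chemokines (chr1:74153994-74161246, plus strand), had 36 counts over the 6 Stat3-deleted, 90 over the 6 tumour-bearing WT and 14 over the 6 control livers. In CPM its lowest, median and highest levels were 0.388, 0.581 and 1.49 in Stat3-deleted, 0.128, 1.97 and 4.21 in tumour-bearing WT, and 0, 0.242 and 0.846 in control livers. Of the tumour-bearing WT livers, replicate 5 had 1 count and replicate 3 had 35, so the group overlapped both others. The difference between tumour-bearing WT and control livers was 2.52 on the log2 scale (SE 0.68, edgeR adjusted p = 0.0534), just short of the threshold. It passed the filter in 13 of 18 fits that left out 1 liver and was called in 5 of them, those without control replicate 2, Stat3-deleted replicate 5 or 6, or tumour-bearing WT replicate 5 or 6 (adjusted p from 0.00875 to 0.0999 over the 13). Between Stat3-deleted and tumour-bearing WT livers the value was -1.43 (SE 0.61, edgeR adjusted p = 0.238), called in 1 of the 13 fits, that without tumour-bearing WT replicate 5 (adjusted p = 0.0478).

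Il1r2, a decoy receptor that binds interleukin-1 without signalling (chr1:40084692-40125230, plus strand), had similar pooled counts in both tumour-bearing groups. It had 52 counts in Stat3-deleted, 50 in tumour-bearing WT and 7 in control livers. Single livers held many of them, 22 in Stat3-deleted replicate 2 and 19 in tumour-bearing WT replicate 4. Its lowest, median and highest levels were 0.439, 0.628 and 2.76 CPM in Stat3-deleted and 0.512, 0.791 and 2.49 CPM in tumour-bearing WT livers. In control livers they were 0, 0.137 and 0.518 CPM. Per library total, the pooled counts of Stat3-deleted livers were 0.995 times those of tumour-bearing WT livers (95% exact interval 0.662 to 1.497, counting error only), and those of tumour-bearing WT livers 5.83 times those of control livers (2.63 to 15.2). The fit with no filter gave 2.53 for Stat3-deleted against control livers (SE 0.77, edgeR adjusted p = 0.0718) and 2.60 for tumour-bearing WT against control livers (SE 0.77, edgeR adjusted p = 0.0931), neither called. In the GENCODE annotation the span of Il1r2 starts earlier, at chr1:40074079. Within that longer span 2 other genes overlap Il1r2, Gm37347 on its strand and Gm16894 on the other, so its reads may include theirs. Whether they reach the span given here or its 3′ end was not checked. Csf3r, the receptor for G-CSF (chr4:126023441-126044975, plus strand), had 20, 12 and 11 counts in Stat3-deleted, tumour-bearing WT and control livers. At this depth no difference in Csf3r was detectable, the ratio of tumour-bearing WT to control livers being 0.89 per library total with an interval of 0.360 to 2.23.

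Hdc encodes histidine decarboxylase, which makes histamine and is found in mast cells, basophils and immature myeloid cells (chr2:126593659-126624025, minus strand). Its lowest, median and highest levels were 8.15, 11.3 and 14.2 CPM in Stat3-deleted livers, 5.67, 8.81 and 14.7 CPM in tumour-bearing WT livers and 4.15, 5.18 and 8.77 CPM in control livers. Its median was thus highest in Stat3-deleted livers, where those of the S100 genes lay below tumour-bearing WT livers, and control replicate 1 was the only control liver above 5.57 CPM. Hdc was higher in Stat3-deleted than in control livers (log2 fold change 1.01, SE 0.23, edgeR adjusted p = 0.0164), in 18 of 18 fits that left out 1 liver. It was not called between tumour-bearing WT and control livers (0.65, SE 0.24, edgeR adjusted p = 0.162; 0.40 and 0.88 within the lower and the higher run, adjusted p = 0.872 and 0.343). Between Stat3-deleted and tumour-bearing WT livers the value was 0.35 (SE 0.23, edgeR adjusted p = 0.416). Mast cell and basophil markers had summed levels of 3.10 to 8.39 CPM in Stat3-deleted, 5.89 to 12.1 CPM in tumour-bearing WT and 2.82 to 7.85 CPM in control livers. Of the 9, Ms4a2 and Tpsab1 were at 0 in all Stat3-deleted livers, Tpsab1 in all tumour-bearing WT livers, and Cma1, Fcer1a, Mcpt8 and Tpsab1 in all control livers. Their part in the level of Hdc was not tested.

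The specific granule genes lie on chromosome 9, Ngp at chr9:110419808-110423012 and Ltf at chr9:111019292-111042766 on the plus strand and Camp at chr9:109847377-109849456 on the minus strand, within a span of 1195390 bases. Ngp, neutrophilic granule protein, had 58 counts over the Stat3-deleted, 150 over the tumour-bearing WT and 10 over the control livers. Its lowest, median and highest levels were 0.626, 1.41 and 1.55 CPM in Stat3-deleted, 0.155, 1.97 and 8.79 CPM in tumour-bearing WT, and 0, 0.0864 and 0.987 CPM in control livers, of which 3 had no count. The tumour-bearing WT livers were the most spread, with 1 count in replicate 1 and 73 in replicate 3. Ngp was higher in tumour-bearing WT than in control livers (log2 fold change 3.69, SE 0.81, edgeR adjusted p = 0.0141). The call ended without tumour-bearing WT replicate 3 (3.09, edgeR adjusted p = 0.0608) and under limma voom (3.57, adjusted p = 0.0593), and without control replicate 2 the value was 4.98. In fits of tumour-bearing WT and control livers alone, with or without a block for the run of label numbers, Ngp did not pass the filter. Nor did it pass within either run, or in a fit of Stat3-deleted and control livers alone. Between Stat3-deleted and tumour-bearing WT livers the value was -1.46 (SE 0.65, edgeR adjusted p = 0.215). Between Stat3-deleted and control livers it was 2.23 (SE 0.85, edgeR adjusted p = 0.129), called under DESeq2 (adjusted p = 0.0499) and, in edgeR, without control replicate 2 (3.53, adjusted p = 0.0403).

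Camp and Ltf were below the filter. Camp, the cathelicidin precursor of an antimicrobial peptide, had 23 counts in Stat3-deleted, 109 in tumour-bearing WT and 9 in control livers. Its levels ran from 0 to 0.819 CPM in Stat3-deleted, 0 to 6.21 CPM in tumour-bearing WT and 0 to 0.705 CPM in control livers, so the groups overlapped at their low ends. In the fit with no filter Camp was called higher in tumour-bearing WT than in control livers (3.40, SE 0.85, edgeR adjusted p = 0.0328), as were 1.19% of the 17055 genes in that fit, and the value between Stat3-deleted and tumour-bearing WT livers was -2.34 (SE 0.76, edgeR adjusted p = 0.0914). Ltf, which encodes the iron-binding lactoferrin, had 5, 38 and 2 counts in Stat3-deleted, tumour-bearing WT and control livers, and it had no count in 2 Stat3-deleted, 2 tumour-bearing WT and 5 control livers. Pooled and per library total, tumour-bearing WT livers had 15.5 times the Ltf counts of control livers (95% exact interval 4.01 to 133, counting error only) and Stat3-deleted livers 0.126 times those of tumour-bearing WT livers (0.0387 to 0.320). These intervals leave out the spread between livers, and the fit with no filter called neither difference (edgeR adjusted p = 0.108 for the first and 0.148 for the second).

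Among the tumour-bearing WT livers, replicates 3 and 4 were the highest for S100a8 and S100a9 and replicate 1 the lowest. Replicates 3, 4 and 6 held the top 3 places for Retnlg, Ngp, Ltf and Camp, whereas Hdc was highest in replicates 4 and 1. Among Stat3-deleted livers replicate 5 was the highest for S100a8, S100a9, Retnlg and Hdc. Within groups, the log2 CPM of S100a8 and S100a9 had a Pearson correlation of 0.955 over the 18 livers, and S100a8 had one of 0.54 with Ngp, 0.38 with Retnlg and 0.23 with Hdc. Values of 1 liver share a library and its depth, so these are descriptions. The count of S100a8 divided by that of S100a9 lay between 0.901 and 1.38 in Stat3-deleted, 0.869 and 1.42 in tumour-bearing WT and 0.833 and 1.20 in control livers. S100a8 and S100a9 together made up 62.5 to 82.8% of the counts of the 10 genes in Stat3-deleted livers, against 77.9 to 90.8% in tumour-bearing WT livers and 66.2 to 85.8% in control livers.

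**Figure D3:**
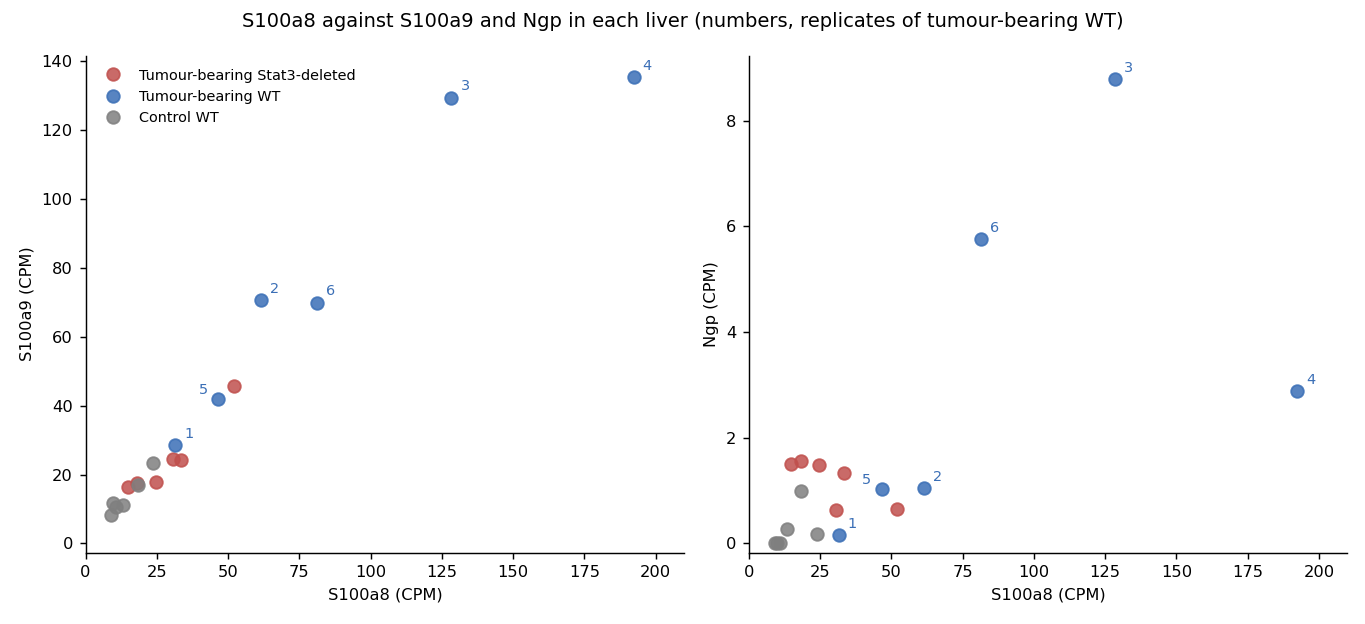
S100a8 level (horizontal axis, CPM) against the S100a9 level (left) and the Ngp level (right) in each of the 18 livers (vertical axes, CPM); points are livers, coloured by group, and numbers are replicates of the tumour-bearing WT group. S100a9 follows S100a8 from liver to liver, while for Ngp replicate 4, with 192 CPM of S100a8, lies below replicate 3, the highest for Ngp at 8.79 CPM.

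The 5 genes whose within-group pattern was most like that of the S100 genes, over 18 livers and among genes that passed the filter, were Il18bp (Pearson correlation 0.862), Snx20 (0.861), Ly6d (0.859), Cyba (0.858) and Lilrb4a (0.841). Il18bp encodes a secreted protein that binds interleukin-18, and Cyba a membrane subunit of the phagocyte NADPH oxidase. Their group levels did not share 1 pattern. Il18bp averaged 29.6 ± 13.4 CPM in Stat3-deleted, 29.2 ± 12.7 CPM in tumour-bearing WT and 12.2 ± 4.75 CPM in control livers (SD, n = 6). Ly6d averaged 1.56 ± 0.609, 12.4 ± 9.41 and 4.05 ± 3.01 CPM in the same groups, and was lower in Stat3-deleted than in tumour-bearing WT livers by a log2 fold change of -2.98 (SE 0.46, edgeR adjusted p = 0.000241).

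Of 23 other genes enriched in neutrophils, 22 were analysed and 5 passed the filter. In tumour-bearing WT against control livers 1 of the 5 was called higher (Wfdc21) and 0 lower, with a median log2 fold change of 0.10. In Stat3-deleted against tumour-bearing WT livers 2 were called lower (Wfdc21 and Mmp9) and 0 higher, with a median of -0.28. In Stat3-deleted against control livers 2 were called lower (Wfdc21 and Cebpe), with a median of 0.06. Wfdc21, a whey acidic protein family member, averaged 1714 ± 192 CPM in Stat3-deleted, 5353 ± 564 CPM in tumour-bearing WT and 3219 ± 635 CPM in control livers (SD, n = 6). Its log2 fold change was -1.64 between Stat3-deleted and tumour-bearing WT livers (SE 0.15, edgeR adjusted p = 2.83e-07) and 0.73 between tumour-bearing WT and control livers (SE 0.15, edgeR adjusted p = 0.00781), the second not called with library totals in place of TMM (0.55, adjusted p = 0.0527). In control livers, where Wfdc21 averaged 3219 CPM, all 10 neutrophil genes together summed to only 25.5 to 55.0 CPM. Which liver cells expressed Wfdc21 was not tested, so its calls cannot be read as those of neutrophils. Without Wfdc21 the other 21 genes summed to 19.7 to 37.5 CPM in Stat3-deleted, 20.4 to 41.2 CPM in tumour-bearing WT and 18.1 to 35.6 CPM in control livers, so the ranges overlapped widely. Of the 22, BC100530, Cd177, Cxcr1, Stfa2 and Stfa3 were at 0 in all Stat3-deleted livers. Cd177, Cxcr1, Stfa1, Stfa2 and Stfa3 were at 0 in all control livers, but only Stfa3 in all tumour-bearing WT livers. Mmp9, a gelatinase stored in neutrophil granules, averaged 2.11 ± 1.05, 5.79 ± 4.13 and 1.96 ± 0.898 CPM in Stat3-deleted, tumour-bearing WT and control livers. It was lower in Stat3-deleted than in tumour-bearing WT livers (-1.45, SE 0.42, edgeR adjusted p = 0.0426), a call made in 10 of 18 fits that left out 1 liver. That call was lost with library totals in place of TMM (-1.37, edgeR adjusted p = 0.0553). Cebpe, a transcription factor needed for specific granules, had its highest mean in control livers, at 5.47 ± 1.02, 6.64 ± 2.40 and 9.67 ± 2.14 CPM in Stat3-deleted, tumour-bearing WT and control livers. Its call between Stat3-deleted and control livers (-0.82, SE 0.23, edgeR adjusted p = 0.0416) was made in 7 of 18 such fits.

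Of 7 azurophil granule genes only Prtn3, which encodes proteinase 3, passed the filter. It averaged 0.974 ± 0.246 CPM in Stat3-deleted, 85.4 ± 35.1 CPM in tumour-bearing WT and 0.678 ± 0.574 CPM in control livers (SD, n = 6). It was higher in tumour-bearing WT than in control livers by 6.99 on the log2 scale (SE 0.39, edgeR adjusted p = 6.9e-11), and by 6.65 and 7.37 within the lower and the higher run. It was lower in Stat3-deleted than in tumour-bearing WT livers (-6.43, SE 0.36, edgeR adjusted p = 1.04e-10). The other 6 azurophil genes had 20 counts in all in Stat3-deleted, 135 in tumour-bearing WT and 26 in control livers. Among them, elastase (Elane) had 10, 66 and 10 counts and myeloperoxidase (Mpo) 10, 57 and 10 in Stat3-deleted, tumour-bearing WT and control livers.

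Of 14 ligands and partners of the receptors, 8 passed the filter. In tumour-bearing WT against control livers 2 were called higher (Cxcl1 and Il1r1) and 0 lower, with a median log2 fold change of 0.82. The Il1r1 call was made in 5 of 18 fits that left out 1 liver and was lost with library totals in place of TMM (adjusted p = 0.0748), while that of Cxcl1 was made in 18 of 18. In Stat3-deleted against tumour-bearing WT livers 1 was called higher (Il1rn) and 4 lower (Cxcl1, Il1a, Il1b and Il1r1), with a median of -0.82, and in Stat3-deleted against control livers Il1rn alone was called, higher, with a median of -0.23. In the second comparison the Il1rn call was made in 12 and the Il1b call in 14 of 18 fits that left out 1 liver, and those of Cxcl1, Il1a and Il1r1 in 18 of 18. Cxcl1, a chemokine that draws neutrophils through Cxcr2, averaged 1.84 ± 1.28 CPM in Stat3-deleted, 85.3 ± 53.9 CPM in tumour-bearing WT and 5.16 ± 1.20 CPM in control livers (SD, n = 6). Its log2 fold change was 4.04 between tumour-bearing WT and control livers (SE 0.42, edgeR adjusted p = 2.88e-06; 4.83 and 3.05 within the lower and the higher run) and -5.51 between Stat3-deleted and tumour-bearing WT livers (SE 0.46, edgeR adjusted p = 4.24e-08). Cxcl1 lay below control livers on average in Stat3-deleted livers, which the S100 genes did not, but that difference was not called (-1.47, SE 0.46, edgeR adjusted p = 0.0676). Il1a, which encodes interleukin-1 alpha, averaged 0.661 ± 0.334, 2.50 ± 0.489 and 1.07 ± 0.576 CPM in Stat3-deleted, tumour-bearing WT and control livers, and was lower in Stat3-deleted than in tumour-bearing WT livers (-1.88, SE 0.41, edgeR adjusted p = 0.00649). Il1rn, the interleukin-1 receptor antagonist, was highest in Stat3-deleted livers, at 10.9 ± 6.00, 4.56 ± 1.85 and 3.01 ± 1.56 CPM in Stat3-deleted, tumour-bearing WT and control livers. It was higher in Stat3-deleted than in control livers by 1.87 (SE 0.37, edgeR adjusted p = 0.00712). Il1b, named after its values were seen, stood at 9.30 ± 5.00, 27.5 ± 14.1 and 13.6 ± 9.96 CPM in the same groups. Csf3, the gene for G-CSF, had 0 counts in all 18 livers.

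Of 11 adhesion and retention genes, 10 passed the filter. In tumour-bearing WT against control livers edgeR called 1, Itgal, an integrin chain of leukocytes, higher (0.71, SE 0.18, adjusted p = 0.0409), in 8 of 18 fits that left out 1 liver. The Itgal call was lost with library totals in place of TMM (0.52, edgeR adjusted p = 0.14). The median of the list was 0.52 in that comparison, -0.17 in Stat3-deleted against tumour-bearing WT livers and 0.25 in Stat3-deleted against control livers. In each of the last pair of comparisons edgeR called 0 of 10, with 2 at an unadjusted p under 0.05, while DESeq2 called 0 and 1 and limma voom 2 and 1. Of 5 genes that break down, transport or receive histamine, 2 passed the filter, Hnmt and Slc18a2. Hnmt, which inactivates histamine, averaged 17.4 ± 6.30 CPM in Stat3-deleted, 24.7 ± 8.40 CPM in tumour-bearing WT and 28.9 ± 6.75 CPM in control livers, the reverse order of Hdc, and edgeR called it in no comparison (smallest adjusted p = 0.0879, Stat3-deleted against control livers). For Stat3-deleted against control livers 1 of the 2 genes had an unadjusted edgeR p under 0.05, and DESeq2 called 0 and limma voom 1.

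Marker lists of other cell types were summed in the same livers. The 10 neutrophil genes summed to 48.4 to 118 CPM in Stat3-deleted, 77.0 to 361 CPM in tumour-bearing WT and 25.5 to 55.0 CPM in control livers. S100a8 and S100a9 made up 62.5 to 82.8%, 77.9 to 90.8% and 66.2 to 85.8% of these genes' counts, so the sums mostly follow them. Monocyte markers (10 genes, none at 0 throughout a group) summed to 48.9 to 95.7, 48.2 to 137 and 24.6 to 97.6 CPM in the same groups, with medians of 61.9, 90.4 and 46.5 CPM. Of the 7 that passed the filter, edgeR called 0 in each comparison. For tumour-bearing WT against control livers 4 had an unadjusted p under 0.05, and DESeq2 called 2 and limma voom 0. Their median log2 fold change was 0.85 in that comparison and -0.39 in Stat3-deleted against tumour-bearing WT livers.

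Markers of Kupffer cells, the resident macrophages of the liver, summed to 858 to 2305 CPM in Stat3-deleted, 854 to 2052 CPM in tumour-bearing WT and 487 to 1257 CPM in control livers (11 genes, none at 0 throughout a group). The 2 tumour-bearing groups covered similar ranges, with a median log2 fold change of 0.08 over the list between these groups. Of the 11, edgeR called Vsig4 higher in tumour-bearing WT than in control livers, and C1qc, Cd5l and Vsig4 higher in Stat3-deleted than in control livers. With 1 liver left out, the first of these calls was made in 13 of 18 fits, and the C1qc, Cd5l and Vsig4 calls of Stat3-deleted against control livers in 15, 11 and 12 of 18. In each tumour-bearing group against control livers, 8 of the 11 had an unadjusted edgeR p under 0.05. DESeq2 called 3 of the 11 for tumour-bearing WT and 5 for Stat3-deleted livers, and limma voom 2 and 7. T and NK cell markers summed to 6.64 to 16.5, 4.95 to 15.4 and 5.21 to 37.2 CPM, and platelet and megakaryocyte markers to 15.1 to 33.4, 11.3 to 31.8 and 8.36 to 18.6 CPM in Stat3-deleted, tumour-bearing WT and control livers. Of the erythroid list only Alas2 had counts, since the 4 globin genes of the list were at 0 in every liver, so the blood left in the livers could not be measured with it. Eosinophil markers summed to at most 1.93 CPM in any liver. B and plasma cell markers were lowest in Stat3-deleted livers, at 2.53 to 8.61 CPM against 8.45 to 39.2 CPM in tumour-bearing WT and 3.97 to 44.4 CPM in control livers, and Jchain was called lower there than in both other groups. Hepatocyte markers defined the tissue in all 18 livers, with sums of 94863 to 109432 CPM in Stat3-deleted, 59243 to 125906 CPM in tumour-bearing WT and 53312 to 84520 CPM in control livers. For Stat3-deleted against control livers 4 of the 6 markers had an unadjusted edgeR p under 0.05, and DESeq2 called 3 and limma voom 4. For Stat3-deleted against tumour-bearing WT livers these numbers were 2, 1 and 2. Among the hepatocyte markers edgeR called Ttr alone, which encodes the plasma protein transthyretin. It was higher in Stat3-deleted than in tumour-bearing WT livers (log2 fold change 0.68, SE 0.17, edgeR adjusted p = 0.0154) and than in control livers (0.66, SE 0.17, edgeR adjusted p = 0.0271), in 18 and 14 of 18 fits that left out 1 liver. Liver endothelial markers summed to 238 to 342, 232 to 308 and 173 to 231 CPM in Stat3-deleted, tumour-bearing WT and control livers, and Clec4g and Stab2 were called higher in Stat3-deleted than in control livers, in 15 and 12 of 18 such fits. Stellate cell markers summed to 459 to 751, 321 to 744 and 351 to 514 CPM in the same groups. Duct and tumour epithelium markers summed to 27.0 to 48.0, 38.8 to 125 and 29.1 to 52.9 CPM, and Sox9 among them was called higher in tumour-bearing WT than in control livers and lower in Stat3-deleted than in tumour-bearing WT livers. The part of these cell types in the levels of the neutrophil genes was not tested.

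**Figure D4:**
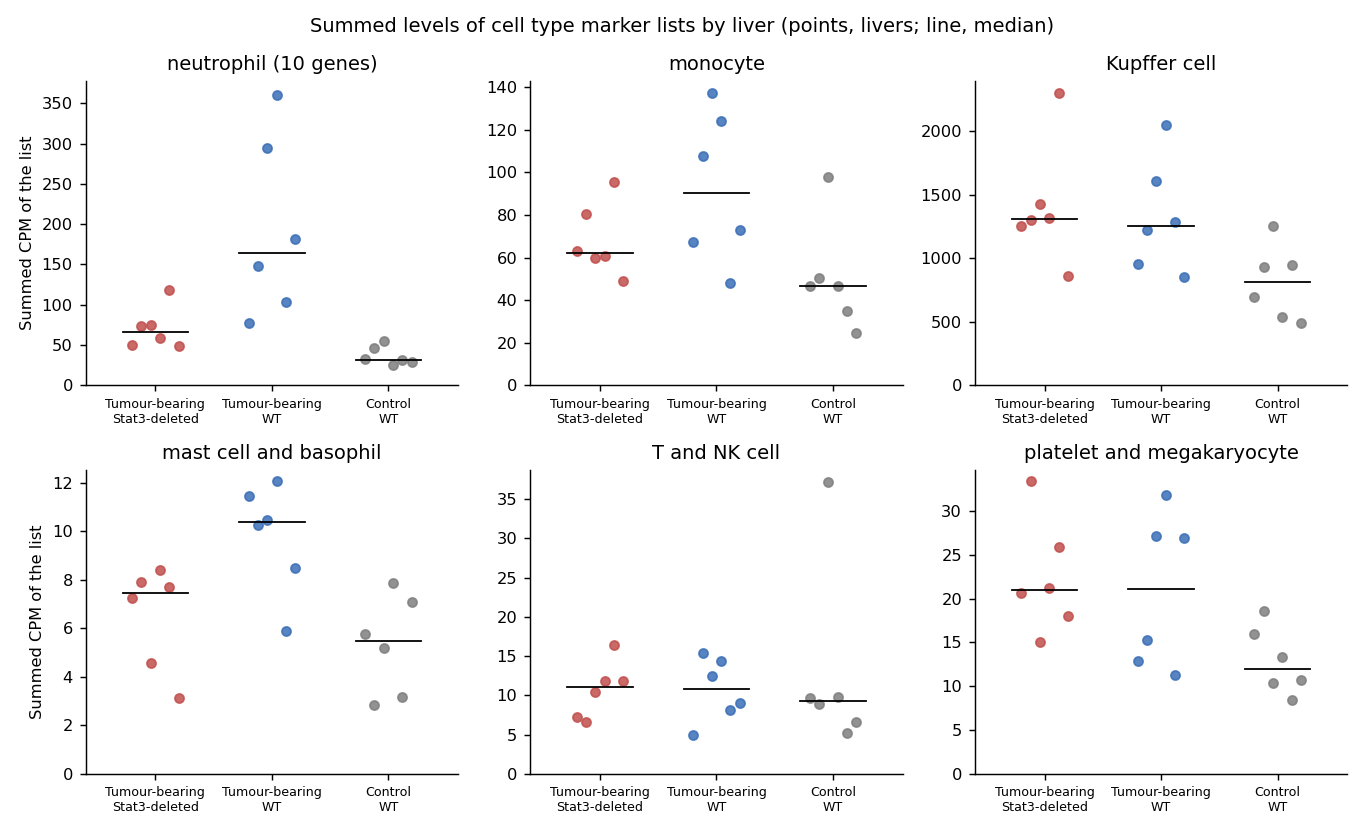
Summed level in CPM (vertical axis, linear, a scale of its own in each panel) of 6 lists of cell type markers in each of 18 livers, by group (horizontal axis); points are livers and lines the median of 6. The neutrophil genes, mostly S100a8 and S100a9 by count, reach 361 CPM in tumour-bearing WT livers, against a highest of 118 CPM in Stat3-deleted livers. The Kupffer cell markers cover 854 to 2052 CPM and 858 to 2305 CPM in those groups.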

How the data were processed

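The 18 libraries were made, per the labels' protocols, from liver RNA with a Lexogen Quantseq 3′ FWD kit, and aligned with STAR to mm10 per the submitters' processing notes. The tool that counted reads, its annotation and its use of strand are not stated in the labels. Overlapping and antisense transcripts therefore cannot be separated. The values deposited by the authors are raw counts per gene symbol, with 1 column per library, matched to samples by the numbers in the labels. Of 24421 symbols, 27 that had become spreadsheet date numbers (0.103 to 0.166% of counts) were left out.

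In R 4.3.3 with edgeR 4.0.16, filterByExpr kept 11218 genes, TMM factors were computed on them, and a quasi-likelihood fit of all 18 libraries (1 coefficient per group, 15 residual degrees of freedom, common biological coefficient of variation 0.281) was tested two-sided for 3 contrasts. Nothing in the labels says more of how livers were taken, so p-values measure the spread between these samples. Alternatives were DESeq2 1.42.0, limma 3.58.1 voom with quality weights, RLE size factors, library totals, no filter, a filter of 1 CPM in 6 libraries, the 2 groups alone, blocks for replicate number or label-number run, and leaving out each library. Fits within each label-number run were added after seeing the data. Replicate numbers share no stated litter or day. The members, lists and the rule for named genes were chosen with earlier results of these data known. Besides the members, up to 4 genes per functional list with the smallest adjusted p in any contrast were picked to be named, and the 5 genes most correlated with the mean of S100a8 and S100a9 (log2 CPM, prior count 2, group means subtracted). Of those picked from the lists, Fpr2, Vcam1, Icam1, Selplg and Slc18a2 were called by edgeR in no comparison, and their levels are not given. Called genes of marker lists, and Il1b, Elane, Mpo and Csf3, were named after their values were seen. Livers in a direction are those on that side of the other group's mean log2 CPM. Intervals of pooled count ratios are exact conditional binomial intervals at 95%. Positions and promoter windows are those of RefSeq for GRCm38.p6, which mm10 is built on. Overlapping genes were looked up with the gene spans of the GENCODE annotation. The procedure was tested on simulated data. Tables were handled in Python 3.11.15 (numpy 2.4.6, pandas 2.3.3, scipy 1.17.1) and plots drawn with matplotlib 3.10.9.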

Additional observations from a re-analysis of the deposited data

Results flagged for a closer look

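In 4 of 30 groups of 6 livers (10 genes in 3 groups), 1 liver stood apart from the other 5, its gap to the nearest liver, as a share of the range of the group, exceeding Dixon's 95% critical value. Chance gives this in about 1 in 20 groups of normally distributed values, a rate that does not hold for genes with many livers at 0, such as Ngp and Ltf in control livers (3 and 5 of 6 livers at 0). For S100a9, Stat3-deleted replicate 5 had 45.8 CPM, with a gap of 0.725 of the range, and that liver was also the highest of its group for S100a8, Retnlg and Hdc. For Hdc, control replicate 1 had 8.77 CPM (0.693 of the range). For Ngp, control replicate 2 had 0.987 CPM (0.722 of the range), from 7 of the 10 Ngp counts in control livers. For Ltf the same control liver had 0.282 CPM, from the only 2 Ltf counts in that group, so the gap was the whole range (a ratio of 1).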

How the results depend on the processing

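No fold change of a neutrophil gene changed sign under any alternative run: over the 5 genes and 3 comparisons, 390 fitted values kept direction and call, 7 kept direction but lost the call and 3 gained it. Fits in which Ngp did not pass the filter are not among these values. For tumour-bearing WT against control livers, 252 genes were called in all, against 462 with DESeq2, 128 with the 2 groups alone, 126 with the run of label numbers as a block, 38 within the lower and 50 within the higher run, and 132 (without tumour-bearing WT replicate 3) to 462 (without tumour-bearing WT replicate 1) with 1 liver left out. Counts under 168 also came without control replicate 4 (163), control replicate 6 (159) or tumour-bearing WT replicate 4 (139). For Stat3-deleted against tumour-bearing WT livers, 686 were called, against 1097 with limma voom and 469 to 906 with 1 liver left out. For Stat3-deleted against control livers, 544 were called, against 860 with DESeq2, 894 with the 2 groups alone, 1318 with limma voom and 258 to 783 with 1 liver left out. The low counts there came on leaving out Stat3-deleted replicate 2 (272), 3 (279) or 5 (258) and control replicate 1 (342), 4 (295) or 5 (361). The number of neutrophil genes called was 4 for tumour-bearing WT against control livers, against 0 within the lower run, 2 within the higher run and 3 to 5 with 1 liver left out. It was 3 for Stat3-deleted against tumour-bearing WT livers, with 3 to 4 after leaving out 1 liver, and 1 for Stat3-deleted against control livers, against 2 with DESeq2, 2 with the 2 groups alone (S100a8, 1.04, adjusted p = 0.0372) and 1 to 2 with 1 liver left out. The causes of these changes in the numbers called were not tested. Scaling by library totals in place of TMM moved the median of all genes to -0.19, 0.03 and -0.13 in the 3 comparisons and the calls that were higher to 115 of 292, 424 of 694 and 139 of 511, against 197 of 252, 324 of 686 and 246 of 544. The neutrophil genes kept their calls with it. Replicate numbers did not pair the livers (correlations of deviations from -0.126 to 0.309 over same-numbered pairs, and most livers were closest to a liver of a different number). With the replicate block the counts of all genes called were 219, 710 and 570, and the block ended the call of Ngp between tumour-bearing WT and control livers (3.32, adjusted p = 0.0529). Depth limits the members outside the filter most: Ltf, with 2 counts over 6 control livers, and Csf3r, with 11.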
